A study of Homo sapiens with 4 samples.

Results

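The Fanconi and homologous recombination genes described here are 9 genes, namely FANCA, FANCB, FANCC, FANCD2, FANCI, BRCA1, BRCA2, BRIP1 and PALB2. They were taken by name from the array design, which gave 13 probes for these 9 genes out of 34127 probes for 27224 genes. The arrays were 1-colour Agilent gene expression arrays, hybridised with RNA of LNCaP and PC3, 2 cell lines from human prostate cancer. LNCaP is an androgen-dependent line, and PC3 is an androgen-independent line. Each line was measured once untreated (control) and once after 24 h in 10 µM atorvastatin (ATO), a statin that inhibits HMG-CoA reductase, the enzyme that commits cells to cholesterol synthesis. All cells were grown in RPMI medium with serum, and no vehicle was named for the controls. With 1 array in each of the 4 groups there was no replicate of any condition, so the differences within a line carry no p-value.

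The Fanconi anemia pathway repairs crosslinks between the DNA strands. A core complex that includes FANCA, FANCB and FANCC acts as a ubiquitin ligase on the FANCD2 and FANCI pair, and the modified pair brings nucleases to the lesion. BRCA1, PALB2, BRCA2 and the helicase BRIP1 then take part in repair of the resulting break by homologous recombination, in which the sister chromatid is the template. Many genes of these pathways are expressed most in S phase and are known targets of E2F transcription factors. Inherited defects in several of them, BRCA2 above all, raise the risk of prostate cancer.

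Promoter sequences were available for 8 of the 9 members, from RefSeq on the GRCh38.p14 assembly. Each window held 250 bases before and 50 bases after a transcription start. FANCC and BRCA1 had more than 1 start, so that 10 windows were searched on both strands. The E2F core letters TTCCCGC or TTGGCGC were found in 5 of the 8 genes and in 6 of their 10 windows, compared with 9.23% of all 35116 promoter windows. The window of the other BRCA1 start did not hold the core. The windows of these members were GC-rich, with a median of 65.5% GC compared with 58.7% over all promoters, and the motif is itself GC-rich. The longer letters TTTCCCGC or TTTGGCGC, which contain the core, were found in FANCC and FANCD2 (2 of 10 windows), compared with 2.27% of all promoters. CCAAT was found in 4 of 8 genes (BRCA1, BRIP1, FANCA and PALB2), in 4 of 10 windows, and in 34.6% of all promoters. TTTGAA, the core of the CHR element, was found in 2 of 8 (BRIP1 and FANCC), in 2 of 10 windows, and in 15.2% of all promoters. The stretches around the E2F core are shown because they are what the promoters of these 5 genes share, with the core in capitals on the strand of the gene. In FANCD2, BRCA1, FANCA and BRIP1 the capitals are the reverse complement of the letters searched. For FANCD2 the stretch is chr3:10026410-10026466 and the core spans the start. For the FANCC starts the stretches are chr9:95317723-95317779 and chr9:95317338-95317394, with the core beginning 45 and 115 bases before the start. For BRCA1 it is chr17:43125380-43125436, with the core beginning 47 bases before the start. For FANCA it is chr16:89816618-89816651 and for BRIP1 chr17:61863499-61863551, with the core at bases 22 to 28 and 3 to 9 after the start. FANCD2 is on the plus strand and the other 4 genes are on the minus strand.
FANCD2: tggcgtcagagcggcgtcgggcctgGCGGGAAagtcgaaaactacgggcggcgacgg
FANCC, first start: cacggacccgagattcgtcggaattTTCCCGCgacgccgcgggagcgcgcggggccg
FANCC, other start: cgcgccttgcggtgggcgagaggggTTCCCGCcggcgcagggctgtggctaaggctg
BRCA1: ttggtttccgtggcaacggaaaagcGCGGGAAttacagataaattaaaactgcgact
FANCA: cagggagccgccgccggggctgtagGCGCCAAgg
BRIP1: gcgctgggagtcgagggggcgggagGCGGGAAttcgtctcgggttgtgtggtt

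FANCA and FANCD2 were each read by 3 probes that did not give the same reading. The first 30 of 60 bases of each probe are shown, as listed in the array design, because the values of these genes depend on the probe. Coordinates are those of the array files on hg18, and exon annotation of that build was not used here. The FANCA probe printed 10 times lies at chr16:88331514-88331573, and its 2 other probes, listed for another FANCA transcript, at chr16:88392268-88392324 and chr16:88404617-88404676. The FANCD2 probe that gave a signal lies at chr3:10118006-10118065, and its 2 other probes at chr3:10115927-10115986 and chr3:10089581-10089640.
FANCA, printed 10 times: atgagggcctcgtttattaagatctttaaa
FANCA, other probe 1: tgtgttgtaccgttcggtacttttactgaa
FANCA, other probe 2: tttattggcacacagtatgttctcccgtct
FANCD2, with signal: agagtttgaaatccgctgtttgcctttctt
FANCD2, other probe 1: ccaccttagagaactgaaataaaaatagaa
FANCD2, other probe 2: ggaaacttcgatgtggaaactttagatata

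Each array held 43118 gene spots, and between 48.5% and 52.9% of them were well above background by the call of the scanner software. Copies of a probe on 1 array had a median SD between 0.12 and 0.14 on the log2 scale. Levels are spot intensities on a linear scale. Log2 ratios were taken after the 75th percentile of each array (496.8 to 588.2 units) was set equal, so a rise in intensity between arrays need not be a rise in the ratio. LNCaP ATO had the most uneven background, with bright local background at 28.2% of the spots in the lower part of the array. The spots of 5 single-spot members lie in that part (FANCB, FANCC, FANCD2, BRIP1 and PALB2), and their own local backgrounds on LNCaP ATO, 94.5 to 129.5 units, were under the limit of 142.8 units for a bright one. Bright local background was also present on PC3 control (16.5% of the lower part) and PC3 ATO (18.8% of the upper and 11.7% of the lower part). On PC3 control it included the spots of FANCC and PALB2. Among the line markers, KLK3 gave 65987 and 65646 units in LNCaP control and ATO and had no signal well above background on the PC3 arrays. CAV1 gave 12387 and 5019 units in PC3 control and ATO and had none on the LNCaP arrays. Of 4 genes that mark other cell types, COL3A1 was well above background on no array, PTPRC only in LNCaP control and on 1 of its 5 probes, PECAM1 only in PC3, and CD68 on all 4. In PC3, PECAM1 had a log2 ratio of 1.45 after ATO (1.38 on another probe) and CD68 of 0.61, and their part in the members' values was not tested.

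After ATO, most members with a value were lower in PC3, and FANCB was lower in LNCaP too. In PC3, 5 of the 8 members with a value were lower by 1.5-fold or more (FANCA, FANCB, BRCA1, PALB2 and, by a bound, BRIP1) and 0 were higher. Of all 13815 genes with a value, 10.3% were lower and 8.2% higher. In LNCaP, 1 of 9 was lower (FANCB) and 0 were higher, compared with 1.99% and 2.77% of 13739 genes. The members measured on both arrays of a line had a median log2 ratio of -0.79 in PC3 and -0.20 in LNCaP, 7 genes in each case, and all genes measured had a median of 0.01 in both lines. The members were chosen with earlier results known, so the count is a description and no test was made of the list. With the 50th percentile as the scale, the same number of members were lower in PC3, and 6.57% of all genes were lower and 15.6% higher. Without the genes in a bright local background, 4 of 6 members were lower in PC3, compared with 7.66% of 9105 genes lower and 7.28% higher. With the spike-in probes as the scale, 6 members were lower in PC3, and the shares of all genes were 13.8% and 5.62%.

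**Figure D1:**
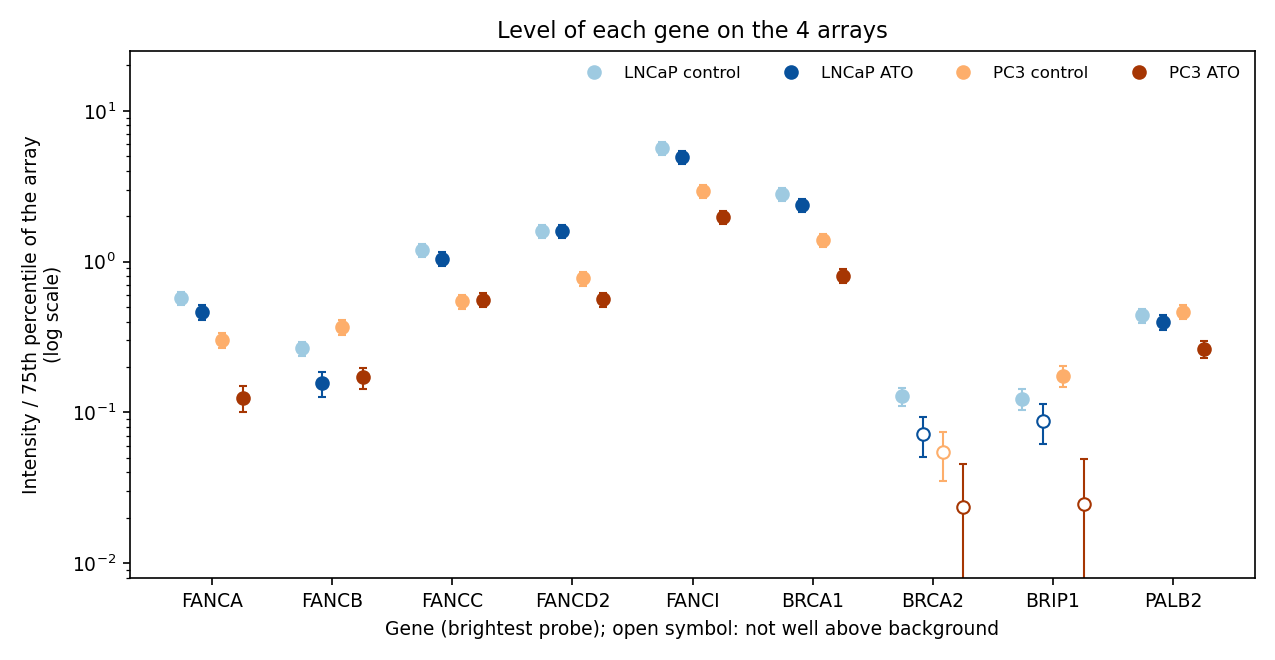
Level of each gene on its brightest probe, as a multiple of the array's 75th percentile (log scale), for the 4 arrays; bars are the error estimate of the scanner software and open symbols mark probes not well above background. The PC3 ATO value is the lowest of the 4 for FANCA, FANCD2, FANCI, BRCA1 and PALB2, while BRCA2 and BRIP1 fall below the detection call on 3 and 2 arrays.

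Of the core complex genes, FANCA was lower in PC3 after ATO and FANCB was lower in both lines, while FANCC did not move in PC3. FANCA is a subunit of the core complex. Its probe with 10 spots gave 284 ± 12.1 units in untreated LNCaP (SD of spots, n = 8 unflagged), 248 ± 25.6 in LNCaP with ATO (n = 10), 181 ± 37.2 in untreated PC3 (n = 10) and 71.9 ± 10.9 in PC3 with ATO (n = 10, of which 8 were well above background). The spots of PC3 ATO all lay below those of PC3 control, whereas the spots of the LNCaP arrays overlapped. Here and for BRCA1 and BRCA2 below, spots are copies on 1 array and not replicates of a condition. How many of the 999 probes printed in copies separated in the same way was not computed. The log2 ratio was -1.27 in PC3 (2.41-fold lower, with an error of 0.34 by the scanner software) and -0.30 in LNCaP (error 0.22).

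The other FANCA probes gave smaller differences in PC3. The first gave 95.6 and 75.7 units in untreated and treated LNCaP, and 72.0 and 38.4 units in untreated and treated PC3. On the PC3 ATO array it missed the detection call, and was at least 1.30-fold lower there than in PC3 control, against the lowest intensity that counted as detected. The second gave 109.9, 86.5, 98.5 and 72.4 units in the same order, with a log2 ratio of -0.40 in PC3 that was no larger than its error (0.40). It lay in a bright local background in PC3 ATO, whose part in the value was not tested. In LNCaP their log2 ratios were -0.44 and -0.45, so all 3 probes of FANCA pointed down in both lines. The difference between the median levels of the 3 probes was -0.42 in PC3, which is under the 1.5-fold threshold. However, the medians of the PC3 control and PC3 ATO arrays came from different probes.

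FANCB, an X-linked gene whose product is part of the catalytic module of the core complex, gave 132 and 83.2 units in untreated and treated LNCaP and 217 and 97.0 in untreated and treated PC3, from 1 spot per array. Both ATO arrays were below their controls. Its log2 ratios were -0.76 in LNCaP (1.70-fold lower, error 0.32) and -1.12 in PC3 (2.17-fold lower, error 0.29). It was the only member past 1.5-fold in both lines. With background correction by normexp, the LNCaP ratio was -0.34 and no longer past the threshold, and the PC3 ratio was -0.72.

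FANCC gave 589 and 556 units in LNCaP control and ATO and 320 and 317 in PC3 control and ATO. Its log2 ratios, -0.18 (error 0.21) and 0.03 (error 0.22), were no larger than their errors, and the sign in PC3 turned with normexp and with the spike-in probes. Its PC3 control spot lay in a bright local background of 123.5 units, whose part in the value was not tested. It was the only member measured in PC3 with a ratio above 0.

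The FANCD2 and FANCI pair, which is the substrate of the core complex, was lower in PC3 by less than the threshold. FANCI gave 2798 and 2618 units in untreated and treated LNCaP and 1727 and 1121 in untreated and treated PC3, from 1 spot. It was 1.49-fold lower in PC3 (log2 ratio -0.58, error 0.21), just outside the threshold, and -0.20 in LNCaP (error 0.20). FANCD2 gave 791 and 849 units in LNCaP control and ATO and 455 and 319 in PC3 control and ATO. The ratio on the log2 scale was 0.00 for LNCaP and -0.46 for PC3 (1.38-fold lower, error 0.21). The 2 other FANCD2 probes read between 5.62 and 18.9 units and were not well above background on any array, so that they gave no value.

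Of the recombination genes, BRCA1, PALB2 and BRIP1 were lower in PC3 after ATO, and BRCA2 was too dim for a ratio there. BRCA1, which takes part in the resection of broken ends, gave 1406 ± 164 and 1270 ± 119 units in untreated and treated LNCaP, and 818 ± 61.0 and 460 ± 45.3 in untreated and treated PC3 (SD of 10 spots each). The highest spot of PC3 ATO (0.962 times the 75th percentile of the array) was below the lowest of PC3 control (1.24 times), and the LNCaP spots overlapped. The log2 ratio was -0.79 in PC3 (1.72-fold lower, error 0.21) and -0.24 in LNCaP (error 0.21).

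PALB2, the link between BRCA1 and BRCA2, gave 218 and 212 units in LNCaP control and ATO and 272 and 149 in PC3 control and ATO. Its log2 ratio was -0.82 in PC3 (1.77-fold lower, error 0.24) and -0.14 in LNCaP (error 0.22). The PC3 control spot lay in a bright local background (132 units, with a limit of 120.1 for that array), whose part in the value was not tested. With normexp the PC3 ratio was -0.51, under the threshold.

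BRIP1, the helicase that binds BRCA1, gave 61.2 and 46.8 units in LNCaP control and ATO and 103 and 14.0 in PC3 control and ATO. The ATO values were not well above background in either line. Against the detection limit, BRIP1 was at least 1.85-fold lower in PC3 and at least 1.20-fold lower in LNCaP. These bounds rest on 1 spot per array and leave out the error of the scanner software. That error was 1.46 for the log2 ratio as measured in PC3 (-2.83) and 0.48 for that in LNCaP (-0.49). BRCA2, a mediator of strand exchange in recombination, gave 66.3 ± 23.0 and 46.4 ± 29.3 units in untreated and treated LNCaP (SD, n = 9 spots each), 32.9 ± 7.51 in untreated PC3 (n = 8) and 13.6 ± 2.90 in treated PC3 (n = 7). In LNCaP control 9 spots were well above background, in LNCaP ATO 2, and on the PC3 arrays 0. Against the detection limit it was at least 1.24-fold lower in LNCaP, but the spots of the LNCaP arrays overlapped, the log2 bound was -0.17 with outlier spots kept, and the authors' deposited ratio was 0.13 in the control and 0.17 after ATO, the other way. On that scale the unflagged spots, most of them not well above background after ATO, gave 0.13 and 0.07. BRCA2 has no fold in PC3, where the spots of the arrays did not overlap but neither array was above background.

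**Figure D2:**
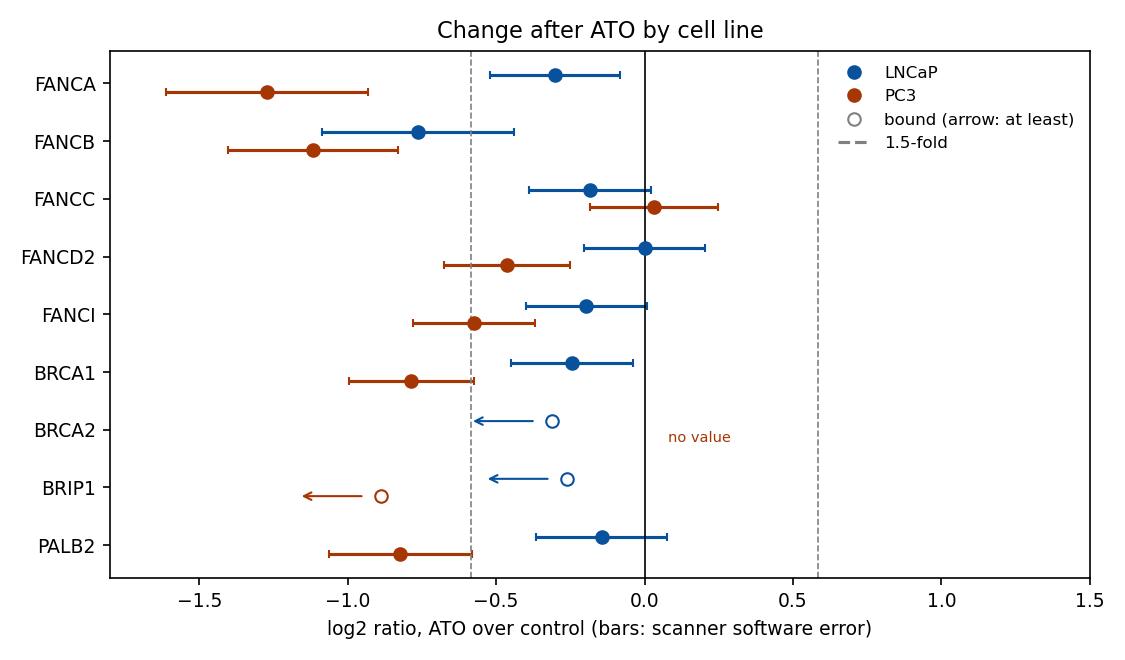
Log2 ratio of ATO over control for each gene in LNCaP and PC3 (horizontal axis), with the error of the scanner software as bars, open symbols with arrows for bounds, and dashed lines at 1.5-fold. The PC3 ratios of FANCA (-1.27), FANCB (-1.12), BRIP1 (bound of -0.89), PALB2 (-0.82) and BRCA1 (-0.79) lie beyond the lower line, and in LNCaP the ratio of FANCB (-0.76) does.

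**Figure D3:**
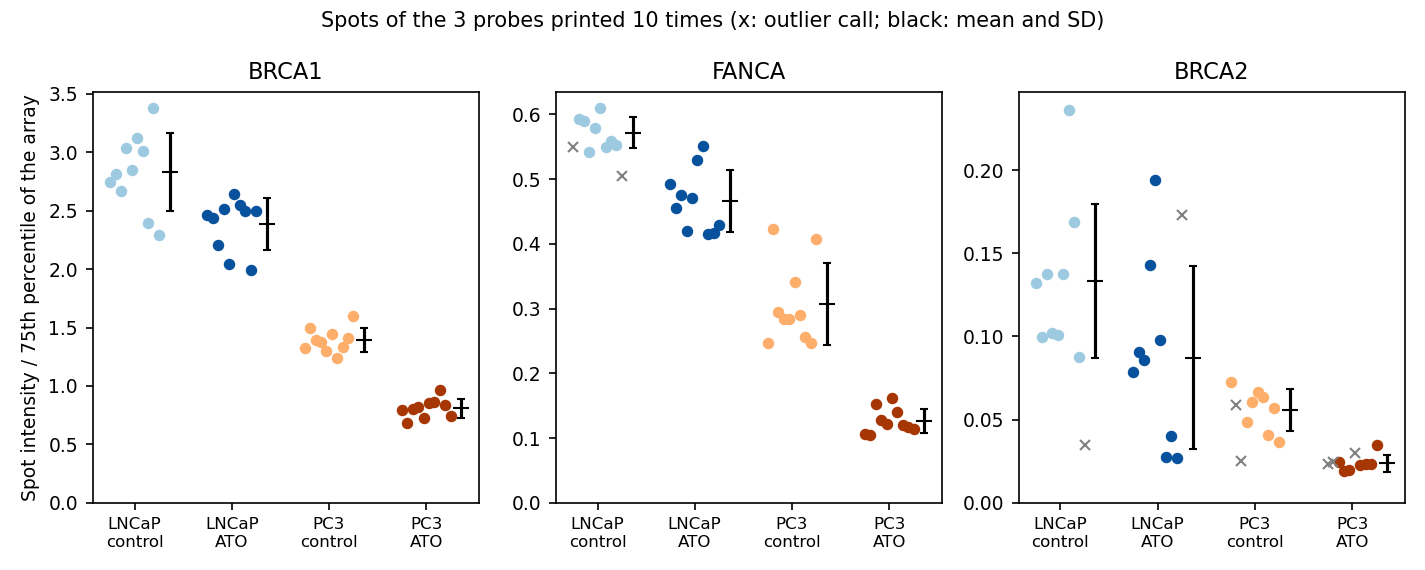
Single spots of the probes printed 10 times on each array for BRCA1, FANCA and BRCA2, as a multiple of the array's 75th percentile, with the mean and SD of the unflagged spots in black and spots with an outlier call as crosses. The PC3 ATO spots are below the PC3 control spots for BRCA1 and FANCA, whereas the LNCaP spots overlap.

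On the brightest probes, the ratio was lower in PC3 than in LNCaP for 6 of the 7 members measured on all 4 arrays. Over all genes measured, the ratios were spread more widely in PC3 (quartiles of -0.22 and 0.24) than in LNCaP (-0.10 and 0.12). The gap between the lines was -0.97 on the log2 scale for FANCA (error 0.40) on the probe printed 10 times. The second of the other FANCA probes had -0.40 in PC3 and -0.45 in LNCaP, so the gap did not appear there. The first had -0.44 in LNCaP and only a bound in PC3 (-0.37, or -0.86 as measured), so its gap was not read. For the other members the gap was largest for PALB2 (-0.68, error 0.33), followed by BRCA1 (-0.54, error 0.29), FANCD2 (-0.46, error 0.30), FANCI (-0.38, error 0.29) and FANCB (-0.35, error 0.43). FANCC went the other way (0.22, error 0.30). On these probes the gap was more than its error in 5 members and more than 2 errors in FANCA and PALB2. These errors cover the reading of spots and not the spread between cultures, so the difference between the lines was not tested. The shares of all genes with such gaps, by sign or against the error, were not computed.

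The only test the design allowed took the 2 lines as repeats of the treatment (limma, cell line as a block, two-sided, 1 residual degree of freedom). Among 11902 genes, 0 passed an adjusted p of 0.05, with a smallest adjusted p of 0.762 by limma, and 532 had an unadjusted p under 0.05. All 8 members tested had a mean log2 ratio below 0, compared with 50.2% of all genes tested, and BRCA2 was too dim to enter. BRIP1 entered on its control values, and its ATO values were not well above background in either line. FANCB had a mean of -0.94 (SE 0.16, unadjusted p = 0.0058, adjusted p = 0.762 by limma) and was lower in both lines. It was the 1 member lower at an unadjusted p under 0.05, where 2.48% of all genes were.

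In the untreated cells, FANCC, FANCD2 and BRCA1 were lower in PC3 than in LNCaP by 2-fold or more. Their log2 differences were -1.12 (error 0.21), -1.04 (error 0.21) and -1.02 (error 0.20), and the 10 BRCA1 spots of PC3 control (1.24 to 1.60 times the 75th percentile) all lay below those of LNCaP control (2.29 to 3.38 times). FANCI (-0.94) and FANCA (-0.92) lay just inside 2-fold. FANCB (0.48) and BRIP1 (0.51) were on the higher side in PC3, PALB2 differed by 0.08, and BRCA2 was at least 1.44-fold lower in PC3. Thus 3 of 9 members were lower and 0 higher, compared with 19% and 20.6% of all 15237 genes. These counts moved with the scale. With the 50th percentile 5 members were lower, with 31.1% of all genes lower and 14.8% higher, and PALB2 turned to -0.37. With the spike-in probes 0 members were lower and 1 higher, with 9.98% and 30.3% of all genes. On that scale PALB2 had 0.58 and the log2 bound of BRCA2 was -0.02. With outlier spots kept the bound of BRCA2 was -0.34. The PC3 control array also served the ATO comparison of PC3, so these values and the PC3 ratios are not independent.

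Other genes of the pathways were read from lists of 16 further Fanconi genes, 27 further recombination genes, 14 checkpoint genes, 9 end-joining genes, 25 mismatch and excision repair genes and 16 genes of S phase and proliferation, of which 1 was not matched on the array. Among the other Fanconi genes, 2 of 15 with a value were lower in PC3 and 0 higher, with a list median of -0.34. The genes lower were FANCM and, by a bound, the nuclease subunit ERCC4, which was higher in LNCaP (0 lower and 1 higher of 16, median -0.07). FANCM, the translocase that recognises stalled forks, had a ratio of -0.67 in PC3 and -0.11 in LNCaP. FANCG, a core complex partner of FANCA, had -0.54 and -0.28, and UBE2T, the ubiquitin-conjugating enzyme of the pathway, had -0.55 and -0.19, all under the threshold. WDR48 (0.13 and 0.17) and FANCF (0.07 and 0.20) had the highest means of the list.

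Among the other recombination genes, 11 of 27 were lower in PC3 and 0 higher, with a median of -0.44, and in LNCaP 0 of 27 were lower or higher, with a median of -0.16. EXO1, an exonuclease of end resection, had -1.35 in PC3 and -0.38 in LNCaP. BLM, the helicase of Bloom syndrome, had -1.17 and -0.32, and RAD54L, a motor protein of recombination, had -0.99 and -0.35. BARD1, the partner of BRCA1, had -1.01 in PC3 and 0.03 in LNCaP. MUS81 (0.14 and 0.28) and XRCC3 (0.20 and 0.08) had the highest means. BARD1, like CLSPN, CHEK2 and PARP1 among the lists that follow, was named after its values were seen and not by the rule for lists.

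In the checkpoint list, 2 of 14 genes were lower in PC3 (ATRIP and, by a bound, CLSPN), with a median of -0.25, and 2 in LNCaP (ATM and CHEK2), with a median of -0.18. ATRIP, the partner of the kinase ATR, had -0.74 in PC3 and -0.29 in LNCaP, and CHEK1 had -0.49 and -0.25. ATM had -1.25 in LNCaP from 1 spot, and 0.06 in PC3. CHEK2 had -0.72 in LNCaP on its brightest probe and -0.25 on another. None of the 8 end-joining genes with a value was lower in PC3 (0 of 8, 0 higher), with a median of -0.03. XRCC5, a subunit of Ku, had -0.59 in LNCaP, the 1 gene of that list lower there, and -0.47 in PC3. Its value is from 1 spot, which lay in a bright local background on at least 1 array. The same holds for ATRIP, FANCG, UNG and MKI67, and the part of that background in their values was not tested. In the mismatch and excision list, 5 of 25 were lower (MSH6, UNG, PARP1 and ERCC2 among them) and 1 higher (ERCC5) in PC3, with a median of -0.17. In LNCaP 1 of 24 was lower (ERCC2), with a median of -0.09. MSH6 had -1.03 and UNG -0.85 in PC3, against -0.11 and -0.29 in LNCaP, whereas ERCC5 had 0.67 in PC3 and 0.15 in LNCaP. ERCC2 was lower in both lines (-0.68 in PC3 and -1.75 in LNCaP).

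The genes of S phase and proliferation were lower together with the members in PC3. Of 14 with a value 12 were lower and 0 higher, with a median of -0.88, and in LNCaP 0 of 15 were lower, with a median of -0.31. MCM2, a subunit of the replicative helicase, had -1.32 in PC3 and -0.43 in LNCaP. CCNE2, a cyclin of S phase entry, had -1.36 and -0.20, and RRM2, a subunit of ribonucleotide reductase, had -0.89 and -0.45. PCNA had -0.96 and -0.31 and MKI67 -1.03 and -0.06, while CCNB1 (-0.14 and -0.17) moved little. The part that fewer cells in S phase had in the members' values was not tested, and in a bulk sample fewer cells of a kind and less RNA per cell cannot be told apart. As a reading of the drug itself, the sterol genes HMGCS1 and INSIG1 were higher in both lines, at 1.86 and 1.38 in LNCaP and 0.62 and 1.16 in PC3.

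**Figure D4:**
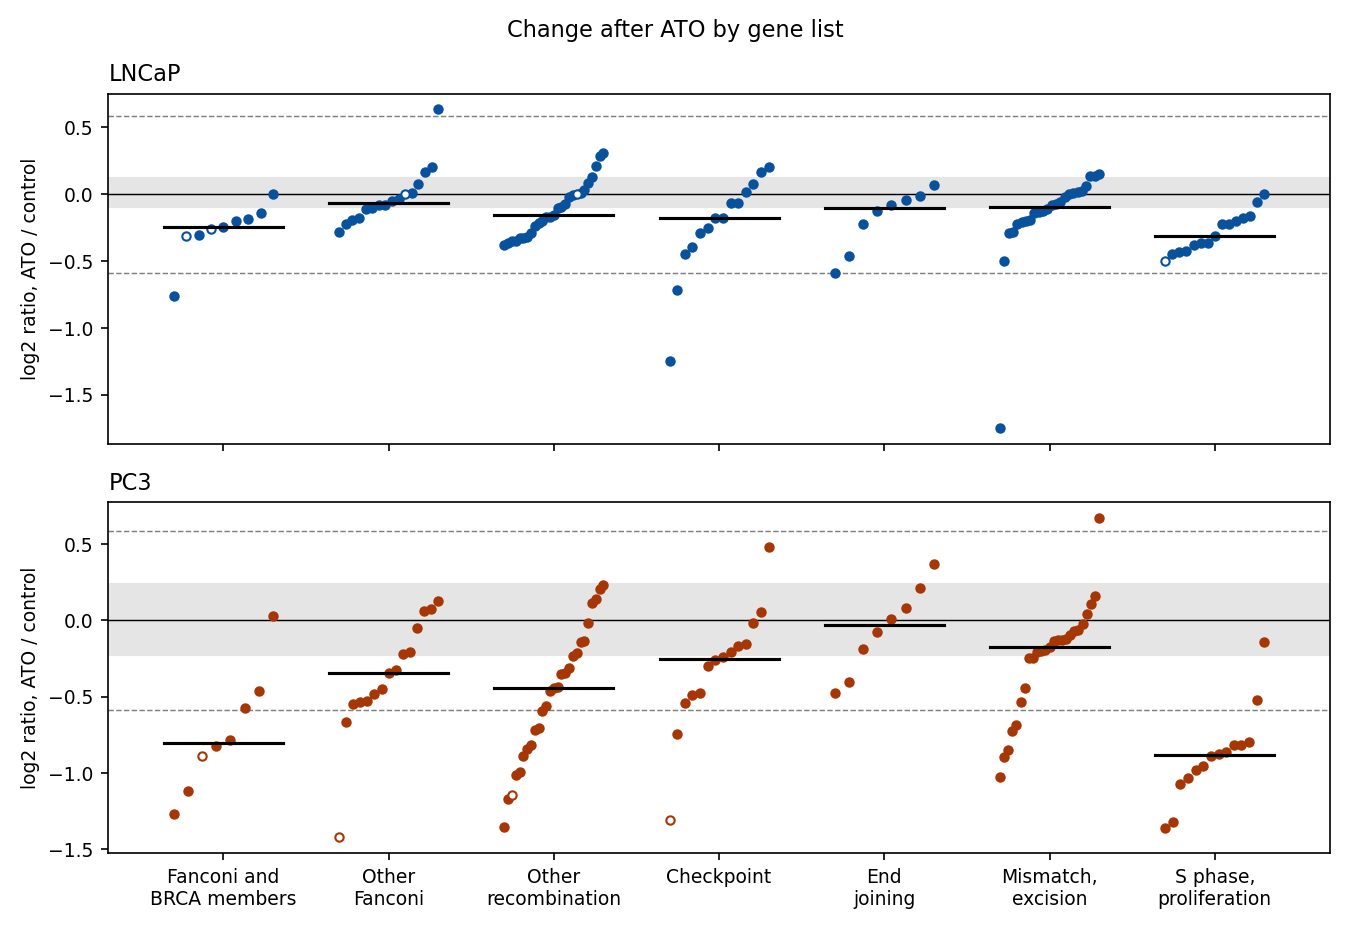
Log2 ratio of ATO over control for each gene of the 9 members and 6 lists, in LNCaP (upper panel) and PC3 (lower panel); black bars are list medians including bounds, open symbols are bounds, the grey band runs from the lower to the upper quartile of all genes and dashed lines mark 1.5-fold. In PC3 the medians run from -0.03 for end joining to -0.88 for S phase and proliferation, with the members at -0.80.

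The 5 genes whose pattern was most like that of the members were sought among 11009 other genes measured on all 4 arrays. The measure was the distance over 3 log2 differences, ATO in LNCaP, ATO in PC3 and PC3 control over LNCaP control, from the median of 7 members (-0.20, -0.79 and -0.94). They were MND1 (distance 0.09), SUV39H2 (0.09), SLBP (0.10), SP4 (0.12) and C16orf59 (0.13). MND1 is a gene of meiotic recombination and SLBP binds histone messages. With 4 arrays this is a description of likeness only.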

How the data were processed

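The scanner files hold spot intensities on a linear scale, which the authors made with Agilent Feature Extraction (version 9.5.3.1 per the file headers), with background subtracted. The deposited value table holds a ratio per probe. It was the intensity divided by the array's 75th percentile, floored at 0.03, and 100% of single-spot probes above 1 lay within 2% of that quotient. Here, outlier spots were left out, log2 intensities were averaged per probe, and the 75th percentile was subtracted. A gene was read by its brightest probe. A probe was detected if over 50% of its spots were well above background. If it passed on 1 array only, the difference is a bound against the lowest detected intensity. Genes were counted at 1.5-fold after ATO and 2-fold between controls. Bright local background was above the median plus 3 MAD-based SD of the array. The only test was limma 3.58.1 (R 4.3.3, with version 1.17.8 of the data.table package), checked on simulated data. The rule for named genes took all members, 5 like genes and 4 reference genes. From each list it took the 3 lowest and 2 highest by mean ratio among genes measured on all 4 arrays. Genes called in both lines were taken too. Not every gene taken is given, and the 2 highest of the checkpoint list and of the end-joining list are left out. The genes named from those lists therefore lean to the lower side. The members and lists were chosen with earlier results of these data known. Alternatives were the 50th percentile, quantile and spike-in scaling, normexp, the deposited ratios, the median over probes, no filter on dim probes, outlier spots kept, bright background left out, other thresholds and an intensity trend. Slide position and group cannot be told apart. The number of arrays limits the precision. Some genes of the lists are not reported here.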

Additional observations from a re-analysis of the deposited data

Results flagged for a closer look

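ERCC4, a subunit of the nuclease that unhooks crosslinks and 1 of the 16 further Fanconi genes, had log2 ratios of opposite sign in the cell lines on its brightest probe. It gave 58.8 and 97.9 units in LNCaP control and ATO (log2 ratio 0.63) and 148.8 and 38.6 units in PC3 control and ATO, where it was not well above background after ATO (bound of -1.42). Another ERCC4 probe had a bound of 0 in LNCaP and no value in PC3. Each value is 1 spot, a bright local background was present at that spot on at least 1 array, and the difference between the lines was not tested.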

How the results depend on the processing

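The count of members lower after ATO in PC3 was between 4 and 6 under every scaling, background, probe and spot alternative run, and 2 at a 2-fold threshold. Of all genes, between 6.41% and 13.8% were lower in PC3 under those alternatives, and 3.79% at 2-fold. The PC3 median was -0.59 with the 50th percentile, -0.51 with normexp and -0.58 with the median over probes. In LNCaP the count lower was 0 with normexp (1.36% of all genes) and at 2-fold (0.79%). It was 3 with the median over probes (4.69%) and 2 with no filter on dim probes (4.79%). BRCA2 entered both of the larger counts with -0.83, its ratio without a bound. FANCD2 entered with the median over probes (-0.82), a value from a probe not well above background on any array. Between controls the count lower was 5 with the 50th percentile (31.1% of all genes). It was 0 with the spike-in probes (9.98%, with 1 member and 30.3% of all genes higher), normexp (16.2%) and a 4-fold threshold (5.71%). The median was -1.37 with the 50th percentile, -0.43 with the spike-in probes and -0.67 with the median over probes. By limma, members at an unadjusted p under 0.05 numbered 3 with the 50th percentile (5.78% of all genes) and the spike-in probes (4.77%), 4 with normexp (6.09%), and 2 with the median over probes (4.76%), no filter on dim probes (3.48%) and an intensity trend (5.02%), compared with 1 member and 4.47% of all genes as reported. All genes at an adjusted p under 0.05 by limma numbered 5 with the 50th percentile and 2 with the spike-in probes. No called value changed direction. The causes were not tested, except that other thresholds count fewer genes by construction. The median of all genes moved to 0.21 in PC3 and -0.56 between controls with the 50th percentile, and to 0.15, -0.10 and 0.39 in LNCaP, in PC3 and between controls with the spike-in probes, and members move with it. In LNCaP, 1.37% of all genes were lower and 4.16% higher with the spike-in probes, 1.36% and 1.24% with normexp, and 4.79% and 38.1% with no filter on dim probes. BRCA2 and BRIP1 lie near or under the background. The limma fit pairs ATO with control within each line, and the labels carry no replicate number for any other pairing.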
